A study of Mus musculus with 4 samples.

Results

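The genes described here fold, inspect and discard proteins in the endoplasmic reticulum (ER). They encode its chaperones, the sensors of the unfolded protein response and the machinery of ER-associated degradation (ERAD). The set was a list of 33 gene symbols, and a gene was measured where at least 1 probe set of the array carried that symbol and no other in the platform's annotation. By this rule 32 of the 33 genes were measured, with 36 probe sets, out of 22180 genes tested in all. Pdia4, a disulphide isomerase gene, had no probe set of its own and is not described.

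RNA came from cultured 4T1 cells, which derive from a mouse mammary carcinoma and which carried a short hairpin RNA against Ldha (shLDHA, 2 arrays) or a scramble hairpin (scramble, 2 arrays). Ldha encodes the lactate dehydrogenase subunit that turns pyruvate into lactate. The shLDHA cells were a pool selected with puromycin at 10 µg/ml, while for the scramble cells no selection is described, so selection and knockdown cannot be told apart. Both kinds of cell grew for 24 hours in complete RPMI 1640. From each sample 400 ng of RNA was labelled for whole-transcript Affymetrix arrays. No label says that the 2 samples of a group came from separate cultures, so the p-values reflect the spread of the arrays alone, and that spread may be technical.

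Values are RMA expression on the log2 scale, so a difference of 1 is a doubling. A gene passed where its adjusted p (limma, Benjamini-Hochberg over all 22180 genes) was under 0.05. The 4 arrays had medians of 3.87 to 3.90 over all probe sets, and arrays of 1 group correlated across genes at 0.997. Ldha read 6.31 and 6.15 on the shLDHA arrays, against 6.69 and 6.96 on the scramble arrays, a log2 change of -0.59 (SE 0.12, limma adjusted p = 0.0390). That call did not hold with the replicate number of the arrays as a block in the fit (limma adjusted p = 0.0734). It also did not hold without scramble replicate 2 (log2 change -0.45), shLDHA replicate 1 (-0.67) or shLDHA replicate 2 (-0.52). Among marker lists, 7 of 7 epithelial genes lay above the level under which 95% of olfactory receptor genes lay (4.24), whereas 0 of 6 measured leukocyte markers, 0 of 4 endothelial ones and 1 of 6 fibroblast ones (Pdgfra) did. Of 4 plasma cell markers, 1 (Sdc1) lay above that level. Of the epithelial markers Epcam and Krt8 were higher and Cldn7 was lower in shLDHA. The part of this in the results below was not tested.

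As background, in the common model proteins that fail to fold in the ER draw the chaperone BiP away from 3 membrane sensors, IRE1, PERK and ATF6. IRE1 splices the Xbp1 transcript into the form that encodes an active transcription factor. PERK slows translation and favours the factor ATF4, while ATF6 is cut in the Golgi to release a transcription factor. The factors ATF6 and XBP1 act on ER stress response elements (ERSE) in the promoters of chaperone and ERAD genes, and cells that secrete much protein rely on this response.

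Promoters of the set are shown first because these elements are the best known feature that its chaperone genes have in common. RefSeq promoter windows of build GRCm38.p6, each 300 bases long and ending 50 bases into the gene, were at hand for 29 of the 33 genes (none for Hyou1, Manf, Derl1 and Atf6). They were searched on both strands for ERSE (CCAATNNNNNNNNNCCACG), ERSE-II (ATTGGNCCACG) and the core of the XBP1-bound element UPRE (TGACGTGG). ERSE, spelled exactly, stood in 0.119% of all 32851 windows of the genome and in those of 9 of the 29 genes, 31% of them. These were Hspa5, Hsp90b1, Calr, Canx, Creld2, Dnajc3, Pdia6, Syvn1 and Derl3. ERSE-II (0.0365% of windows) stood in those of Herpud1 and Dnajb11, and the UPRE core (0.676% of windows) in none. The stretches below run 5′ to 3′ in the direction of the gene, with the element in capitals. ERSE is read forward in Hspa5, Canx and Syvn1, backward in Calr, and once each way in Hsp90b1, while Herpud1 has ERSE-II.
Hspa5, chr2:34772005-34772063, plus strand: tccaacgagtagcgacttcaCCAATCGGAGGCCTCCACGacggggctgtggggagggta
Hsp90b1, chr10:86705513-86705676, minus strand: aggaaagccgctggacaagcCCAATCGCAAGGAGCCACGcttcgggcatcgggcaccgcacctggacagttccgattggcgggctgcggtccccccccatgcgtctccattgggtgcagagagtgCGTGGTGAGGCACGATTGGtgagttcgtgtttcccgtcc
Calr, chr8:84847055-84847113, minus strand: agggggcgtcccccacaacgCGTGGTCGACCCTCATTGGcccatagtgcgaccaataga
Canx, chr11:50325780-50325838, minus strand: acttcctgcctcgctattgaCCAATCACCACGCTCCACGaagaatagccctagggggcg
Syvn1, chr19:6046512-6046570, plus strand: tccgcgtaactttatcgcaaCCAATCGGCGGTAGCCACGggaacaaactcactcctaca
Herpud1, chr8:94386357-94386407, plus strand: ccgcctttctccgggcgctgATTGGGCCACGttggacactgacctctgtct

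Beside these stand the 150 bases before the start of a gene that was higher in shLDHA (Sel1l) and of one that was lower (Pdia5), in which none of the 3 spellings was found on either strand.
Sel1l, chr12:91849158-91849307, minus strand: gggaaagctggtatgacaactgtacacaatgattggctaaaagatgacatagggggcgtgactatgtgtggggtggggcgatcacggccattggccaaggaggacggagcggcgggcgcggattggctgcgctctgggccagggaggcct
Pdia5, chr16:35490874-35491023, minus strand: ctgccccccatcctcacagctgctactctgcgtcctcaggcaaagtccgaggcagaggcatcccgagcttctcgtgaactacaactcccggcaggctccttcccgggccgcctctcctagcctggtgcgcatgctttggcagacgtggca

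The set as a whole did not shift in one direction in the knockdown cells. Of the 32 measured genes, 3 were higher in shLDHA (Derl1, Sel1l and Ssr1) and 2 were lower (Pdia5 and Hyou1), and all 5 changes were below 1.5-fold. That is 15.6% of the set, where 6.36% of all genes passed, 3.37% of them higher and 2.99% lower. The log2 change was above 0 for 16 genes and below 0 for 16, and its median over the set was 0.00, against 0.01 over all genes. At an unadjusted p under 0.05, 10 genes of the set passed, beside 21.5% of all genes. In 22 of the 32 genes (68.8%) the 2 shLDHA arrays lay wholly to one side of the 2 scramble arrays, above them in 11 and below them in 11. Over all genes 50.3% were apart in this way, 26.2% above and 24% below. The set was bright, with array medians of 8.38 to 8.41, against a median level of 4.02 over all genes. Among genes at or above that level alone, 1442 passed as higher and 1341 as lower, with 3 and 5 in the set. Over all genes only 747 and 663 passed, so a larger share passed in the fit of brighter genes. The 15.6% and 6.36% above therefore do not compare genes of like level. The part of the level in the shares above was not tested.

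**Figure D1:**
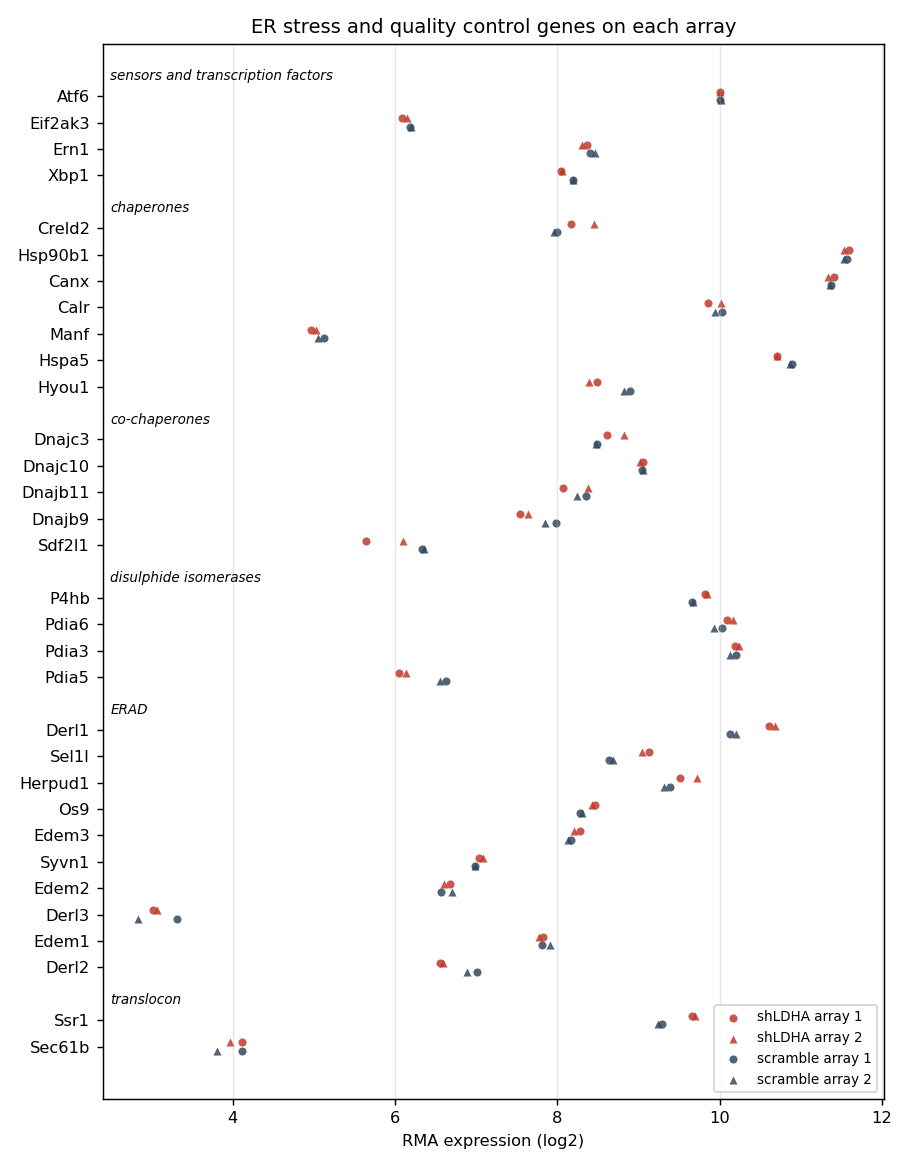
RMA expression (log2, x axis) of the 32 measured genes on each of the 4 arrays, grouped by role. Red symbols are shLDHA arrays and dark symbols scramble arrays; in most genes the 4 symbols lie within 0.5 of each other.

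The sensors themselves read nearly alike in both kinds of cell. Atf6, the gene of the membrane-bound transcription factor, read 10.01 and 10.01 on the shLDHA arrays, against 10.01 and 10.02 on the scramble arrays. Ern1, which encodes IRE1, read 8.37 and 8.31 in shLDHA and 8.41 and 8.47 in scramble. Eif2ak3, which encodes PERK, read 6.09 and 6.15 in shLDHA and 6.18 and 6.20 in scramble. In each of these genes both shLDHA arrays lay below both scramble arrays, by little.

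Xbp1, the transcript that IRE1 splices, read 8.05 and 8.05 on the shLDHA arrays, against 8.20 and 8.19 on the scramble arrays. Its log2 change was -0.15 (SE 0.08, limma adjusted p = 0.374), and none of the 4 genes passed. The 95% intervals of their log2 changes lay between -0.34 and 0.19, which leaves out a change of 1.5-fold in either direction for each. A probe set value sums over the transcript and does not separate spliced from unspliced Xbp1.

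Of the 7 chaperone genes 1 was lower, 0 were higher and 6 did not pass. Hspa5, which encodes BiP, the main Hsp70 chaperone of the ER, read 10.71 and 10.71 on the shLDHA arrays, against 10.89 and 10.87 on the scramble arrays. Both shLDHA arrays lay below both scramble arrays, but the log2 change of -0.17 (95% interval -0.37 to 0.02) gave a limma adjusted p of 0.285. It passed in the fit whose variance prior followed the mean level (limma adjusted p = 0.0267), and in none of the other 12 alternative settings.

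Hyou1 was the chaperone gene that fell. It encodes GRP170, a large Hsp70 relative that helps BiP release its nucleotide. It read 8.49 and 8.40 on the shLDHA arrays, against 8.90 and 8.82 on the scramble arrays. The log2 change was -0.42 (SE 0.09, limma adjusted p = 0.0425), or 1.34-fold lower, and the arrays did not overlap. With any 1 of the 4 arrays left out the limma adjusted p lay between 0.104 and 0.175, so no such fit kept the call.

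The other folding factors of this group did not pass. Hsp90b1, the gene of the Hsp90 of the ER, read 11.59 and 11.53 on the shLDHA arrays, against 11.57 and 11.53 on the scramble arrays, with a log2 change of 0.01 (95% interval -0.19 to 0.21). The lectin chaperones Calr (-0.05) and Canx (0.01), which hold glycoproteins until their sugars are trimmed, had overlapping arrays as well. Manf, a stress-inducible ER protein that is also secreted, changed by -0.09. Creld2, another stress-inducible ER protein, read 8.17 and 8.45 in shLDHA, against 8.00 and 7.96 in scramble. Both shLDHA arrays were above the scramble ones but lay apart from each other, and the log2 change of 0.33 did not pass (SE 0.11, limma adjusted p = 0.149). Leaving out shLDHA replicate 2 gave 0.19, leaving out shLDHA replicate 1 gave 0.47, and it passed with a trended prior (limma adjusted p = 0.0350).

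**Figure D2:**
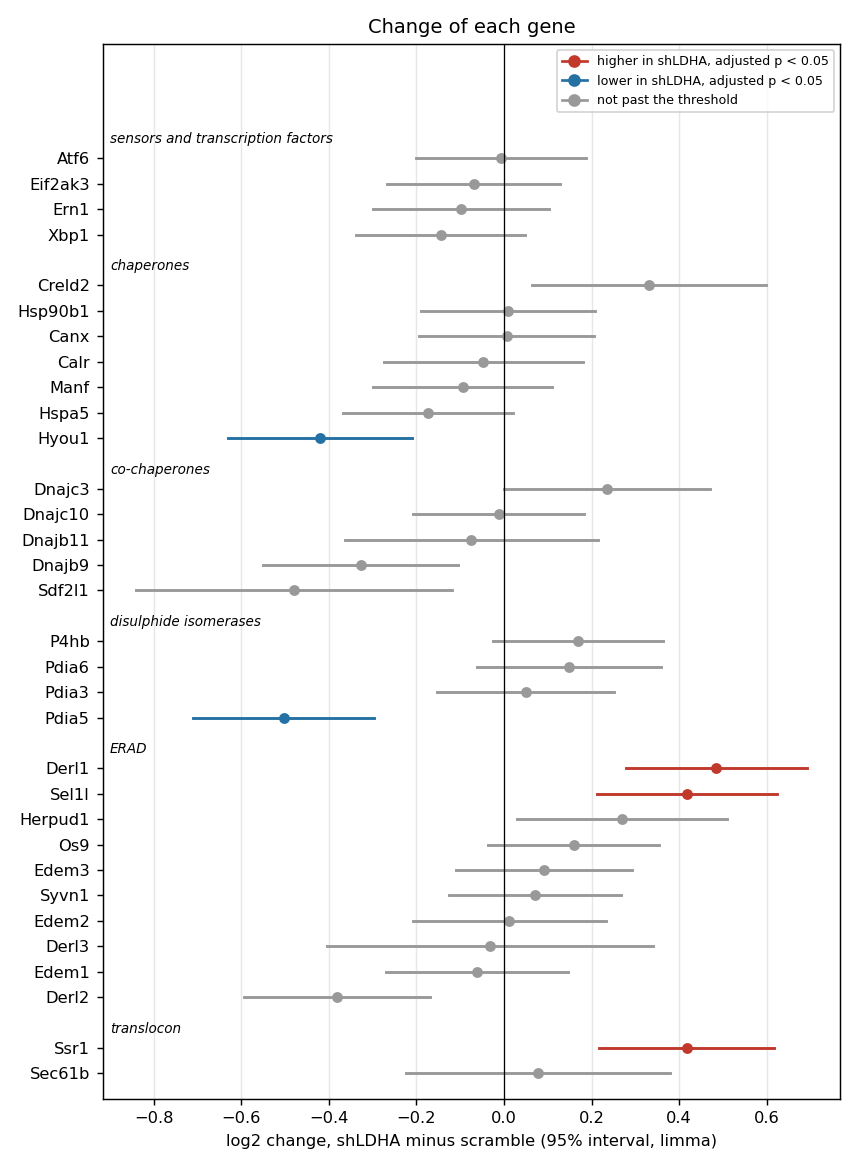
Log2 change (shLDHA minus scramble, x axis) of the 32 genes with its 95% interval from limma, grouped by role. Derl1, Sel1l and Ssr1 (red) were higher and Pdia5 and Hyou1 (blue) lower. The intervals, which are not adjusted over genes, also lie on one side of 0 for 5 genes that did not pass (Creld2, Dnajb9, Sdf2l1, Herpud1 and Derl2).

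None of the 5 genes of J-domain co-chaperones and their partner passed. Sdf2l1, which forms a complex with the co-chaperone encoded by Dnajb11, read 5.64 and 6.10 on the shLDHA arrays, against 6.34 and 6.36 on the scramble arrays. The shLDHA arrays were both lower but differed from each other by 0.46, and the log2 change of -0.48 had an SE of 0.15 (limma adjusted p = 0.127). Its size depended on which array was kept, being -0.71 without shLDHA replicate 2 (limma adjusted p = 0.0465) and -0.25 without shLDHA replicate 1 (limma adjusted p = 0.272). It also passed among genes at or above the median level (limma adjusted p = 0.0464) and with a trended prior (limma adjusted p = 0.0446).

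Dnajb9, whose product hands misfolded proteins to BiP and ERAD, read 7.54 and 7.64 in shLDHA, against 7.99 and 7.85 in scramble. Its arrays did not overlap, and the log2 change was -0.33 (SE 0.09, limma adjusted p = 0.0996). It passed among genes at or above the median level (limma adjusted p = 0.0289) and with a trended prior (limma adjusted p = 0.0193). Dnajc3, the co-chaperone that restrains PERK, had a log2 change of 0.23 that did not pass (limma adjusted p = 0.234), and it was 0.13 without shLDHA replicate 2 and 0.34 without shLDHA replicate 1. Dnajb11 (-0.07) and the disulphide reductase gene Dnajc10 (-0.01) had overlapping arrays.

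Of the 4 measured disulphide isomerases 1 was lower and 3 did not pass. Pdia5 read 6.05 and 6.13 on the shLDHA arrays, against 6.63 and 6.56 on the scramble arrays. The groups were apart, with means of 6.09 ± 0.06 in shLDHA and 6.59 ± 0.05 in scramble (SD, n = 2 each). The log2 change of -0.50 (SE 0.09, limma adjusted p = 0.0237), or 1.42-fold lower, was the largest fall in the set. With any 1 array left out the limma adjusted p was between 0.0686 and 0.105. Pdia5 lies on chromosome 16 of the RefSeq table, where 70 of 706 tested genes were lower (9.92%) and 4 were higher, and the part of this in its change was not tested. Sdf2l1 and Dnajb11 lie there too.

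The other family members had log2 changes above 0, and none passed. P4hb, the founding protein disulphide isomerase gene, read 9.82 and 9.85 in shLDHA, against 9.66 and 9.67 in scramble (log2 change 0.17, limma adjusted p = 0.300). Pdia6, a further isomerase gene, changed by 0.15 (limma adjusted p = 0.401). Pdia3, the partner of calnexin and calreticulin, changed by 0.05 with overlapping arrays.

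Genes of ERAD held 2 of the 3 rises. This machinery recognises misfolded proteins, threads them back through the membrane and ubiquitylates them for the proteasome. Of 10 genes, 2 were higher, 0 were lower and 8 did not pass. Over all genes 3.37% were higher and 2.99% were lower, and a group of 10 genes is small to set against these shares. Derl1, which encodes a derlin of the membrane channel, read 10.61 and 10.69 on the shLDHA arrays, against 10.12 and 10.20 on the scramble arrays. Its groups did not overlap, and the log2 change of 0.49 (SE 0.09, limma adjusted p = 0.0263), or 1.40-fold higher, was the largest rise in the set. With any 1 array left out its limma adjusted p was between 0.0728 and 0.120. On chromosome 15 of the RefSeq table, 7 of the 20 tested genes nearest to Derl1 in gene order were also higher and 0 were lower, and the part of this in its change was not tested.

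Sel1l encodes the adaptor that carries substrates to the ubiquitin ligase HRD1. It read 9.13 and 9.04 on the shLDHA arrays, against 8.64 and 8.69 on the scramble arrays. The groups did not overlap, and the gene was 1.34-fold higher (log2 change 0.42, SE 0.09, limma adjusted p = 0.0407). With any 1 array left out the limma adjusted p was between 0.110 and 0.162. Syvn1, the gene of HRD1 itself, read 7.03 and 7.09 in shLDHA, against 6.99 and 6.99 in scramble. Its arrays did not overlap either, but the log2 change was 0.07 (95% interval -0.12 to 0.27).

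The other derlins did not follow Derl1. Derl2 read 6.55 and 6.59 on the shLDHA arrays, against 7.01 and 6.89 on the scramble arrays. Its arrays were apart in the opposite direction to those of Derl1, and the log2 change of -0.38 (SE 0.09) had a limma adjusted p of 0.0584. It passed where dim genes were left out (0.0144 above the median level) or the variance prior followed the mean (0.0146). A second Derl2 probe set changed by -0.13, and averaging the pair of probe sets gave -0.26. Derl3, the derlin of secretory tissues, was below the olfactory receptor level in both groups, at 3.04 ± 0.04 in shLDHA and 3.07 ± 0.34 in scramble (SD, n = 2 each).

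Herpud1, which encodes a stress-inducible membrane protein that brings ERAD components together, read 9.52 and 9.72 in shLDHA, against 9.38 and 9.32 in scramble. Both shLDHA arrays were higher, and the log2 change was 0.27 (SE 0.10, limma adjusted p = 0.185). The change became 0.17 when shLDHA replicate 2 was left out, 0.37 when replicate 1 was, and it passed with a trended prior (limma adjusted p = 0.0321). The lectin gene Os9, whose product reads trimmed sugars on doomed glycoproteins, changed by 0.16 (limma adjusted p = 0.330). Of the mannosidase-like genes that mark glycoproteins for disposal, Edem1 changed by -0.06, Edem2 by 0.01 and Edem3 by 0.09, and none passed.

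At the translocon, the channel through which new proteins enter the ER, 1 of 2 genes was higher. Ssr1, which encodes the alpha subunit of the translocon-associated complex TRAP, read 9.66 and 9.70 on the shLDHA arrays, against 9.29 and 9.24 on the scramble arrays. The groups did not overlap, and the gene was 1.34-fold higher (log2 change 0.42, SE 0.08, limma adjusted p = 0.0373). A second Ssr1 probe set read 5.49 and 5.62 in shLDHA, against 5.14 and 5.18 in scramble. Its change of 0.39 was close to that of the first, with a limma adjusted p of 0.0573 when every probe set was tested. With any 1 array left out the limma adjusted p of Ssr1 was between 0.113 and 0.160. Sec61b, a small subunit of the channel, was dim, with means of 4.04 in shLDHA and 3.96 in scramble, and its arrays overlapped.

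**Figure D3:**
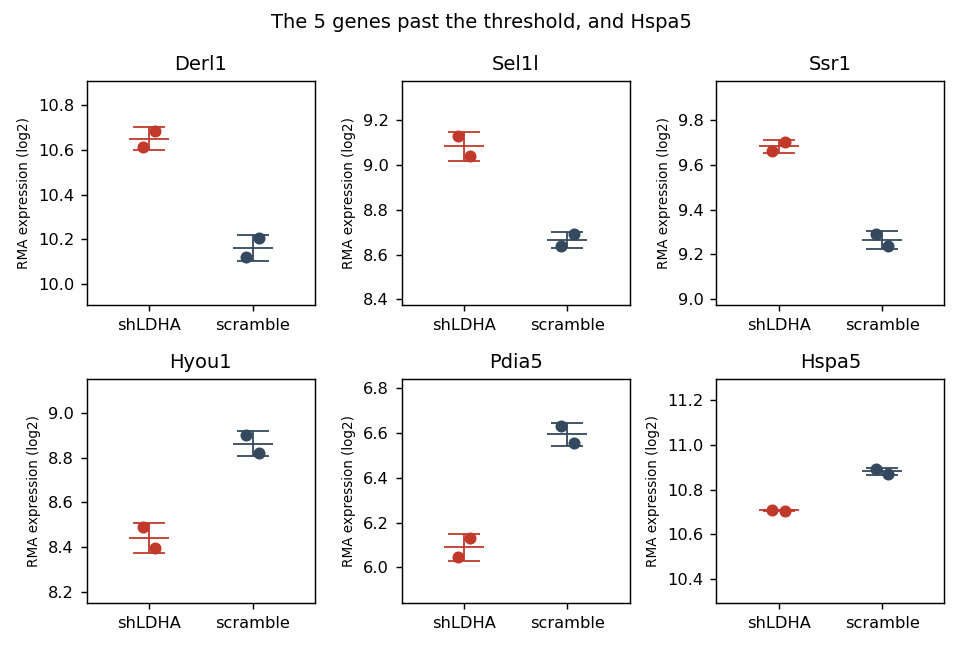
RMA expression (log2, y axis, each panel spanning 1 unit and not starting at 0) of the 5 genes that passed and of Hspa5. Points are single arrays, and bars give the mean ± SD of 2 arrays; in all 6 panels the 2 shLDHA arrays lie apart from the 2 scramble arrays.

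Set against the promoter elements, 0 of the 9 genes with an exact ERSE passed, beside 6.36% of all genes, and their log2 changes ran from -0.17 (Hspa5) to 0.33 (Creld2) with a median of 0.01. The 19 measured genes that had a window without ERSE include Herpud1 and Dnajb11, which carry ERSE-II. Of the 19, 2 were higher and 1 was lower, with changes from -0.50 to 0.42 and a median of -0.01. The difference between these groups was not tested, and 0 of 9 is little to read against that background. The other 2 genes that passed, Hyou1 and Derl1, had no window to search.

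Around these genes, 100 more genes of the same pathways were measured, from lists of 105. Of the 100, 3 were higher and 4 were lower in shLDHA, 7% against 6.36% of all genes, and the median log2 change was -0.02. None of 16 translocon and signal peptidase genes passed, with Ssr4, another TRAP subunit, at 0.25 (limma adjusted p = 0.148) and the signal peptidase gene Spcs2 at 0.23 (limma adjusted p = 0.182). None of 13 genes of N-glycosylation and glycan trimming passed either, with the oligosaccharyltransferase genes Ostc at -0.15 and Dad1 at 0.13. Of 25 other folding enzymes and co-chaperones, 1 passed. This was Fkbp11, a prolyl isomerase gene, which read 8.16 and 8.41 in shLDHA, against 8.94 and 8.78 in scramble (log2 change -0.58, SE 0.11, limma adjusted p = 0.0370).

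Of 23 other ERAD genes 2 passed, both higher. Rnf5, which encodes a membrane ubiquitin ligase, read 7.76 and 7.80 in shLDHA, against 7.16 and 7.24 in scramble (log2 change 0.58, SE 0.08, limma adjusted p = 0.0156). Rnf139, another ligase gene of the ER membrane, read 9.40 and 9.35 in shLDHA, against 8.83 and 8.83 in scramble (log2 change 0.54, SE 0.08, limma adjusted p = 0.0161). Rnf139 lies on chromosome 15 with 13 tested genes between it and Derl1, outside the 20 nearest to Derl1. Of the 20 tested genes nearest to Rnf139, 4 were higher and 0 were lower. These 4 include Zhx1, Atad2 and Fbxo32, which are also among the 20 nearest to Derl1, so the neighbourhoods overlap. Of 12 other sensors and transcription factors, Nfe2l1, the gene of an ER-anchored factor that induces proteasome genes, was lower (-0.43, SE 0.08, limma adjusted p = 0.0362). Leaving out 1 array raised the limma adjusted p of Fkbp11 and Nfe2l1 to between 0.0603 and 0.161, and that of Rnf139 to between 0.0642 and 0.0822. Rnf5 passed in 1 of the 4 such fits, without scramble replicate 2 (0.0419).

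**Figure D4:**
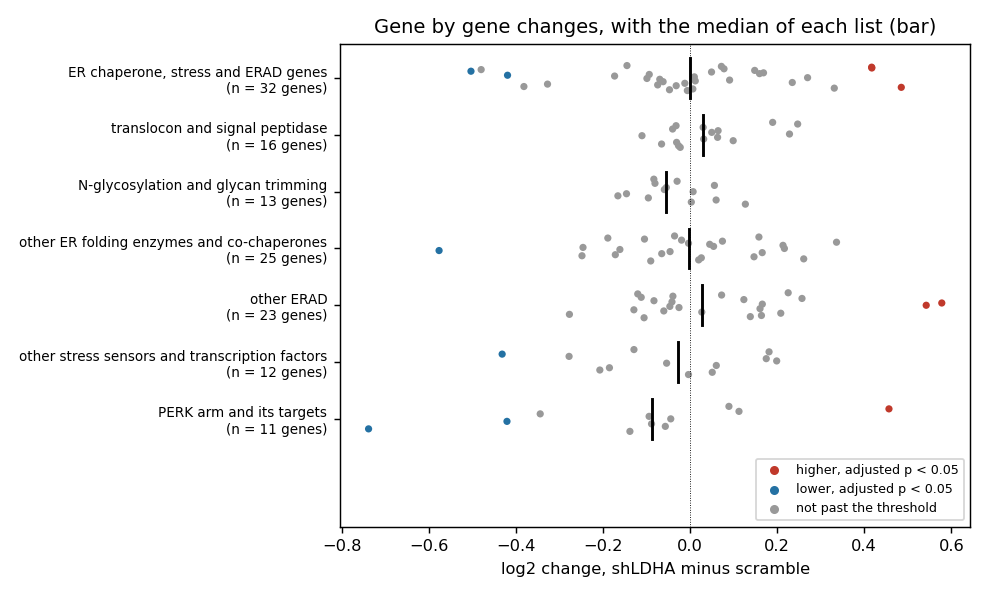
Log2 change (shLDHA minus scramble, x axis) of each measured gene of the set (top row, 32 genes) and of 6 further lists of ER and stress genes. Bars mark each list's median; 3 of the 100 further genes were higher and 4 lower.

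In the PERK arm 1 of 11 measured genes was higher, 2 were lower and 8 did not pass. That is 27.3% of a short list, beside 6.36% of all genes, and the difference was not tested. Atf3, a stress-induced transcription factor gene that many other signals switch on as well, read 8.72 and 8.72 on the shLDHA arrays, against 9.46 and 9.46 on the scramble arrays. Its groups lay far apart for their spread, with a log2 change of -0.74 (SE 0.08, limma adjusted p = 0.00559), and it passed with each array left out. Chac1, which encodes a glutathione-degrading enzyme, was lower (-0.42, SE 0.09, limma adjusted p = 0.0426), while Sesn2, the gene of a stress-induced restraint on mTORC1, was higher (0.46, SE 0.09, limma adjusted p = 0.0319). Neither of these passed with any 1 array left out, where the limma adjusted p lay between 0.0855 and 0.160. The central factors of the arm, named after their values were seen, did not pass: Atf4 changed by -0.06 (95% interval -0.26 to 0.14) and Ddit3 by -0.04 (95% interval -0.28 to 0.19).

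**Figure D5:**
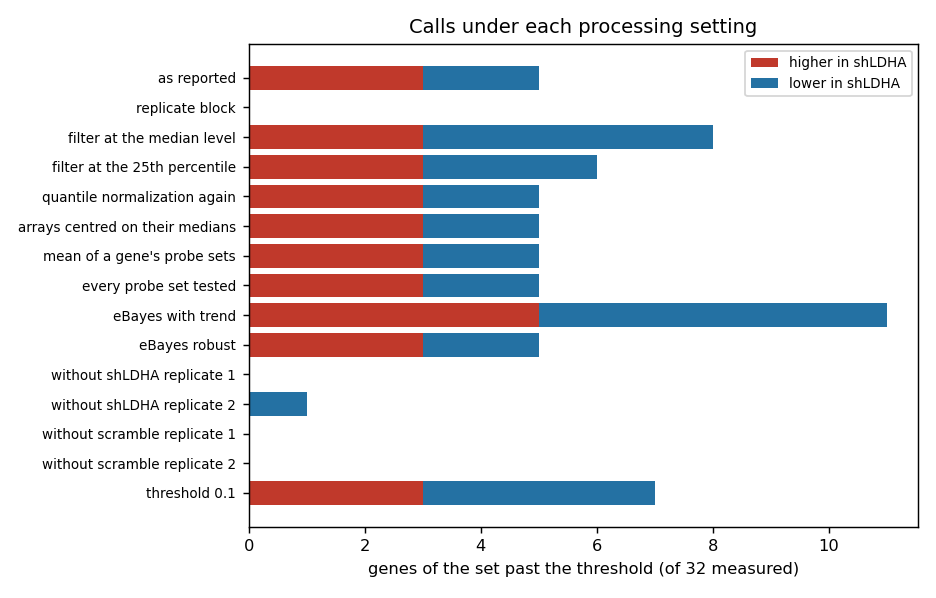
Number of the 32 genes past the threshold (x axis) as reported and under each other processing setting (rows). Red bars count genes higher and blue bars genes lower in shLDHA; the count was 5 as reported, 11 when the variance prior followed the mean level, and 0 in 4 of the settings.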

How the data were processed

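The values deposited by the authors are log2 expression from RMA, run in R 3.4.0 according to the submitters' processing notes, with the annotation version not given in the sources. The deposited log2 scale was checked from the values, 1.23 to 12.91 over 41345 probe sets. Groups and replicate numbers came from the sample titles. The cell type label reads LDHA for all 4 samples, while each sample's source name, description and genotype label match the group in its title. The platform table gave 1 symbol for 23521 probe sets, while 1814 had several and 16010 had none. Probe sets with 1 symbol were used, and the probe set with the highest mean stood for each of the 22180 genes. limma 3.58.1 in R 4.3.3 (lmFit, eBayes) compared the groups over all 4 arrays with no covariate, two-sided, with 2 residual and 4.52 prior degrees of freedom. The code was tested on simulated data. The number of arrays limits the precision. The genes and lists were chosen with earlier results of these data known. Every gene of the set could be named, and from each further list the genes that passed or, with none, the 2 with the smallest p. RefSeq tables (GRCm38.p6) gave promoter windows, chromosomes and gene order, and 32 of the 32 measured genes matched by identifier and symbol. Alternatives were a replicate block, filters on dim genes, 2 further normalizations, other uses of probe sets, trend and robust variance priors, leaving out each array, and a threshold of 0.1. Figures were drawn with matplotlib 3.10.9.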

Additional observations from a re-analysis of the deposited data

How the results depend on the processing

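Over 13 alternative settings, the 5 genes of the set that passed kept their direction, and none of them passed in all 13. Each lost the call with the replicate number as a block and without any 1 array. A fit on 3 arrays has 1 residual degree of freedom and takes the lone array to vary like the other group. No label says what the replicate numbers mark, and same-numbered arrays did not deviate together (correlation across genes -0.03). With the replicate block, 433 genes were higher and 405 lower over all genes, and 0 and 0 in the set. In the further lists 2 were higher (Rnf5 and Rnf139) and 1 was lower. The limma adjusted p under the replicate block was 0.0525 for Derl1, 0.0818 for Sel1l, 0.0773 for Ssr1, 0.0727 for Hyou1 and 0.0548 for Pdia5. Genes at or above the median level alone gave 1442 higher and 1341 lower. Of these, 3 higher and 5 lower were in the set, and 6 higher and 8 lower in the further lists. The trended prior gave 1425 higher and 1381 lower, with 5 and 6 in the set and 9 and 7 in the further lists. At a threshold of 0.1, 1271 were higher and 1120 lower, with 3 higher and 4 lower in the set. Leaving out 1 array gave 150 to 322 genes higher and 220 to 316 lower, 0 higher and 0 to 1 lower in the set, and 0 to 1 higher and 1 lower in the further lists. The set's median log2 change (3.4e-06 as reported) was 0.0057 after a second quantile normalization, -0.012 with arrays centred on their medians, and -0.011 to 0.014 without 1 array. Centring subtracts 1 constant from each array, so it moves the change of every gene by the same amount. The cause of the other shifts was not tested. The median of all genes moved by at most 0.012 under another normalization.

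Genes that did not pass and whose change lay near 0 also changed sign in places, never past the threshold. With arrays centred, Hsp90b1 was -0.0021 and Canx -0.0055, and after a second quantile normalization Canx was -0.0019 and Atf6 0.014. With 1 array left out, Hsp90b1 lay between -0.020 and 0.039, Calr between -0.13 and 0.032, Canx between -0.029 and 0.042, Dnajb11 between -0.23 and 0.077, Dnajc10 between -0.031 and 0.0069, Edem2 between -0.058 and 0.082, Derl3 between -0.27 and 0.21, Sec61b between -0.078 and 0.23, and Ddit3 between -0.12 and 0.031.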

Other observations

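The genes around Derl1 were higher in shLDHA more often than the 3.37% of all genes, a pattern noticed after the values were seen. In RefSeq gene order, 7 of the 20 tested genes nearest to Derl1 were higher and 0 were lower. Their median log2 change of 0.13 was not particular to Derl1, since the 20 nearest to Sel1l had a median of 0.15, with 2 higher and 0 lower. Around Ssr1 1 of 20 was higher and 0 were lower, and around Hyou1 0 passed in either direction. The 7 genes near Derl1 were Fbxo32 (0.91), Dscc1 (0.88), Tbc1d31 (0.84), Mtbp (0.77), Atad2 (0.63), Zhx1 (0.48) and Deptor (0.40). Fbxo32, a ubiquitin ligase gene known from muscle wasting, read 6.72 and 6.75 on the shLDHA arrays, against 5.79 and 5.85 on the scramble arrays. Over the whole of chromosome 15, which also holds Creld2, 60 of 845 tested genes were higher (7.1%) and 19 were lower (2.25%), with a median change of 0.05.

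Chromosome 16, which holds Pdia5, Sdf2l1 and Dnajb11, went the other way. There 4 of 706 tested genes were higher (0.567%) and 70 were lower (9.92%), and the median change was -0.08. Among the 20 tested neighbours of Pdia5, 2 were lower and 0 were higher. On the 20 chromosomes with at least 100 tested genes, the share of genes that were lower ran from 1.3% to 9.92% and the share that were higher from 0.567% to 7.1%. On chromosome 1, which holds Atf6 and Edem3, 84 of 1234 tested genes were higher (6.81%) and 16 were lower (1.3%). Neither Atf6 nor Edem3 passed. No test of these differences between chromosomes was made.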
